A study of Mus musculus with 16 samples.

Results

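Voltage-gated sodium and calcium channel genes were followed in the lumbar spinal cord of SOD1G93A mice, which carry a mutant human SOD1 transgene and model amyotrophic lateral sclerosis, and of non-transgenic wild-type mice. The members were every probe that is not an array control and whose gene name begins with Scn, a number and a or b, or with Cacna, Cacnb or Cacng. This gave 73 probes with 38 gene names, of 41174 probes with 27962 names on the array. The 4 groups were wild-type at 40 days, SOD1G93A at 40 days, wild-type at 80 days and SOD1G93A at 80 days, both ages before symptoms, with 4 arrays in each group and 1 biological replicate on each array. All mice, and the pool, had the B6SJL background, and the methods describe males. The line carries many copies of the transgene, and whole cord was used, so that neurons and glia were measured together. Cord RNA was labelled with Cy3 and hybridized beside a Cy5-labelled pool of neonatal heart, kidney and liver RNA from both genotypes, and no array had the dyes exchanged.

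Each of these channels has 1 large pore-forming protein and smaller auxiliary partners. Sodium channel alpha subunits open on depolarization and carry the rising phase of the action potential, and their beta subunits bind to them and adjust gating and adhesion at the axon initial segment and the nodes of Ranvier. Calcium channel alpha1 subunits admit calcium for transmitter release, firing patterns and muscle contraction. The alpha2delta subunits bring them to the surface, the intracellular beta subunits stabilise them, and most of the gamma family are known as partners of AMPA glutamate receptors (TARPs) rather than of calcium channels. In motor neurons these channels set excitability and calcium load, which is why they have been studied in this disease. By class, the array held 18 probes for 10 sodium channel alpha genes, 22 for 10 calcium channel alpha1 genes, 6 for 3 sodium channel beta genes, 7 for 3 alpha2delta genes, 9 for 4 calcium channel beta genes and 11 for 8 gamma genes. The file name Scn2a1 is an older symbol of Scn2a. The probe now assigned to Cacna2d4 carries another name in the files, 5730412N02Rik, and was no member.

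The probe sequences show how far signal of close relatives could be kept apart. All 73 probes were 60 bases long, and 63 had at least 1 reading frame without a stop codon in the sense direction. Only 2 of them shared a run of at least 20 bases with a member probe of another gene, namely a probe of Scn1a and the Scn3a probe on which the Scn3a signal rested. This Scn3a probe was well above background in cord on 16 of 16 arrays, whereas the other 2 Scn3a probes, which lack this run, were above background on 0 arrays in both channels. Scn3a is the alpha subunit known mainly from embryonic and neonatal neurons, and the share of Scn1a transcript in the signal of its probe was not tested.

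Auxiliary subunits were detected more often than pores. Testing required cord signal well above background on 3 or more of the 4 arrays in 1 group, which 25 of 33 auxiliary probes (75.8%) and 18 of 40 pore-forming probes (45.0%) achieved, beside 21953 of 41174 probes (53.3%) on the whole array. Of the auxiliary probes, 22 were above background on all 16 arrays and 3 on none. Of the pore-forming probes, 11 were above background on all 16 arrays and 11 on none. The tested probes covered 28 genes, 13 pore-forming and 15 auxiliary. The 10 genes that did not pass were Scn7a, Scn9a, Scn10a and Scn11a among the sodium channels, the last 3 known from peripheral sensory neurons, Cacna1e, Cacna1f and Cacna1i among the pores of calcium channels, and Cacng1, Cacng6 and Cacng8 of the gamma family. Cacng8 was above background on 4 of 16 arrays, Scn9a, Scn11a and Cacna1i on 1 each, and both Scn10a probes on 1. No level is given for any of the 10, apart from a bound for Scn7a. Single arrays had between 34 and 47 member probes above background.

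**Figure D1:**
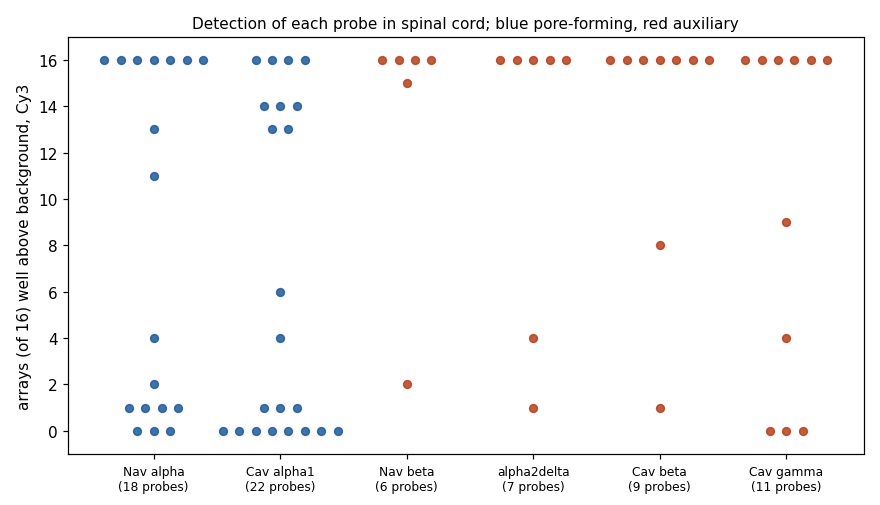
Number of the 16 arrays on which each of the 73 probes was well above background in spinal cord (Cy3, vertical axis), by subunit class, with 1 point for each probe, pore-forming classes in blue and auxiliary classes in red. Pore-forming probes gathered at both ends, with 11 on all arrays and 11 on none, whereas 22 of 33 auxiliary probes were detected on every array.

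The log2 ratio of cord to pool describes how strongly each gene was enriched in cord over neonatal heart, kidney and liver. It is not an amount of RNA, dye and sample cannot be told apart in it, and dim signals pull it towards 0. Taking the brightest probe of each gene, 21 of the 28 genes had a mean ratio above 0 over the 16 arrays and 7 below. The median over these genes was 0.46 for pores and 0.86 for auxiliary subunits, beside 0.084 over all probes tested. The brightest probe was picked by its cord signal (Cy3), a choice not made for the value over all probes, so these medians are not like measures. Of the tested probes, 66.7% of the pore-forming and 80.0% of the auxiliary ones lay above 0, against 55.4% over all probes.

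Among the sodium channel alpha subunits, Scn8a, the channel of mature nodes and initial segments, had the highest ratio at 5.58 ± 0.18 (SD, n = 16), a cord signal 47.8-fold that of the pool. Scn2a1 followed with 3.50 ± 0.19, and Scn1a, prominent in fast-spiking interneurons, with 3.04 ± 0.12. Scn3a stood at 0.80 and Scn4a, the channel of skeletal muscle, at −0.07. The range of this Scn8a probe (5.33 to 5.81) showed no overlap with the other sodium channel alpha genes tested. The second tested Scn8a probe had a mean of 2.42 (1.99 to 2.70), below the brightest probes of Scn2a1 and Scn1a. Scn7a was above background in the pool on 16 arrays and in cord on none, so that the pool was at least 1.72-fold brighter.

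Of the sodium channel beta subunits, Scn2b, the subunit linked to alpha subunits by a disulphide bond, had a mean ratio of 4.86 ± 0.22 (28.9-fold), whereas the brightest Scn3b probe was brighter in the pool, at −1.44. The second tested Scn3b probe had a mean of −0.12 (−0.36 to 0.07).

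The calcium channel pores lay closer to the pool. Cacna1b, the N-type channel of presynaptic terminals, reached 1.69 (3.24-fold) and Cacna1g, a T-type channel, 1.15. Cacna1h, another T-type channel, had a mean of 0.46 and Cacna1a, the P/Q-type channel of the neuromuscular and central synapse, 0.30. The L-type channels were all below 0, with Cacna1s of skeletal muscle at −0.28, Cacna1d at −0.52 and Cacna1c, known from heart and smooth muscle as well as neurons, at −0.54. Cacna1b and Cacna1a were each above background in Cy5 on 12 of 16 arrays.

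For the partners of calcium channels, Cacnb4, the beta subunit typical of brain, led with 4.30 ± 0.10 (19.7-fold). Cacnb3 had a mean of 0.86, Cacnb1 one of 0.20 and Cacnb2, the main beta subunit of heart, −0.25. Of the alpha2delta genes, Cacna2d3 had the narrowest ratio of the class at 2.95 ± 0.088, Cacna2d2 stood at 1.71 and Cacna2d1, the target of gabapentin in dorsal horn, at 0.70. In the gamma family Cacng2 (stargazin) had 2.79, Cacng5 1.97, Cacng7 0.78, Cacng4 0.61 and Cacng3 0.34. Their pool signal was above background on 14 of 16 arrays for Cacng5, 13 for Cacng7, 11 for Cacng4 and 3 for Cacng3, so the ratios of these genes, and that of Scn3a (12 arrays), are in part set against a pool level not above background and are given without an order. Probes of 1 gene could differ widely. The Cacna2d2 probe at chr9:107258230-107258289 gave 1.71 and the one at chr9:107258011-107258070, just upstream, gave −0.66, and the 4 Cacnb4 probes ranged from 1.03 to 4.30.

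**Figure D2:**
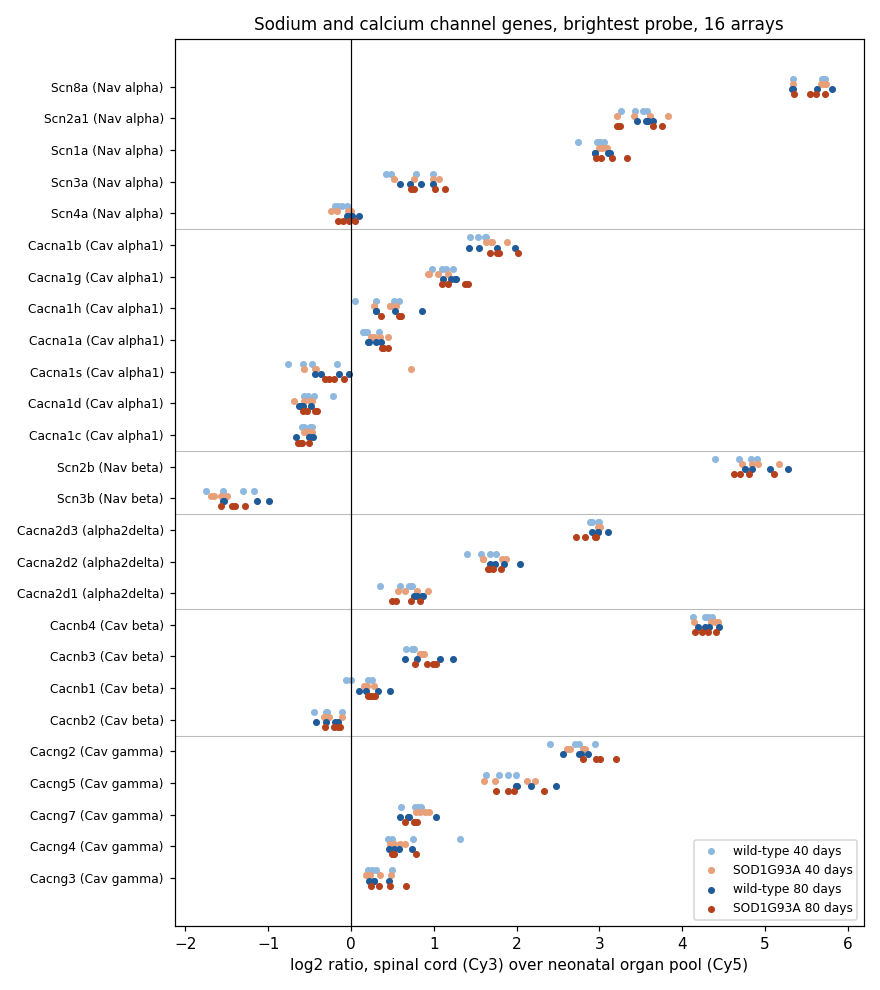
Log2 ratio of cord over neonatal organ pool (horizontal axis) of the brightest probe of 26 tested genes, ordered by class and with every array shown as a point coloured by group. Scn8a, Scn2b and Cacnb4 lay farthest to the right, the groups were intermixed for nearly every gene, and 1 SOD1G93A array of 40 days stood apart for Cacna1s at 0.72.

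At 40 days the question was whether channel genes differ between SOD1G93A and wild-type cord long before symptoms. At the threshold of the study (unadjusted p under 0.05 by limma), 2 of 41 member probes were called, or 4.88%, where 4.51% of all probes tested were called, so the share of channels was near the background. Both were higher in SOD1G93A cord, Cacnb3 and Cacna1b, where 2.50% of all probes were called higher. None of the 41 passed a Benjamini-Hochberg adjusted p of 0.05 in limma, and no probe of the array did. No member was called with local backgrounds kept as deposited, without loess, with Cy3 alone, with the authors' normalized table or with the spread taken from all 16 arrays. In whole cord, fewer cells of a type and less RNA per cell cannot be told apart.

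Cacnb3, a beta subunit that couples to N-type and L-type channels in neurons, had log2 ratios of 0.74, 0.77, 0.73 and 0.66 in wild-type and 0.88, 0.83, 0.84 and 0.87 in SOD1G93A replicates 1 to 4. The groups did not overlap, and the SOD1G93A array was the higher one in all 4 replicate numbers. The change was +0.13 (SE 0.049, 95% interval 0.02 to 0.24, limma p = 0.0239, adjusted p = 0.997, exact permutation p = 0.0286, the smallest that 4 against 4 arrays can give). It was the only 1 of 41 members without overlap, beside 2.83% of all probes. The call was lost without wild-type replicate 4 or SOD1G93A replicates 1 or 4, with p up to 0.0587, and with the slide, which held 1 array of every group, as a replicate block (limma p of 0.0532). At 80 days the same probe gave 1.24, 0.80, 1.07 and 0.65 in wild-type and 1.02, 0.92, 0.99 and 0.78 in SOD1G93A cord, with wide overlap and a change of −0.01 (limma p = 0.917, exact permutation p = 0.914).

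Cacna1b had ratios of 1.62, 1.44, 1.63 and 1.54 in wild-type and 1.89, 1.70, 1.69 and 1.63 in SOD1G93A cord at 40 days. The lowest SOD1G93A array lay level with the highest wild-type arrays. The change was +0.17 (SE 0.072, limma p = 0.0412, adjusted p = 0.997, exact permutation p = 0.0571). The call was lost without wild-type replicates 2 or 4 or SOD1G93A replicates 1, 2 or 3, with p up to 0.123. At 80 days the values were 1.98, 1.43, 1.77 and 1.55 in wild-type and 2.02, 1.68, 1.79 and 1.77 in SOD1G93A cord, and the change of +0.13 (SE 0.12, limma p = 0.294, exact permutation p = 0.343) was the largest among the brightest probes of the calcium channel pores at that age without passing the test.

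The other classes had no call at 40 days. Scn3a showed the largest change among the brightest probes of the sodium channel pores, +0.16 (SE 0.15, limma p = 0.294, exact permutation p = 0.343), from wild-type values of 0.48, 0.42, 0.99 and 0.79 and SOD1G93A values of 0.99, 0.52, 1.07 and 0.77. Both groups covered nearly the same range. A less bright Scn2a1 probe was at +0.18 (limma p = 0.351, exact p = 0.486). Scn2b had 4.39, 4.83, 4.91 and 4.69 in wild-type and 4.92, 4.73, 4.84 and 5.16 in SOD1G93A cord (change +0.21, SE 0.12, limma p = 0.122, exact p = 0.200), and here wild-type replicate 1 was the lowest and SOD1G93A replicate 4 the highest. Cacng4, a TARP, had 0.75, 0.45, 0.50 and 1.31 against 0.65, 0.52, 0.47 and 0.59 (change −0.19, SE 0.16, limma p = 0.261, exact p = 0.486). The high value of wild-type replicate 4 carried this change, which lay between −0.30 and −0.01 as single arrays were left out. Scn8a (0.003), Scn4a (0.01), Cacna1c (0.02), Cacnb2 (0.03) and Cacng2 (0.02) had changes of under 0.1 on the log2 scale, and Cacna1g (−0.09), Cacna1d (−0.12) and Scn3b (−0.16) were on the lower side without passing the test.

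Taken by class at 40 days, 15 of 18 pore-forming and 19 of 23 auxiliary probes had a change above 0, with medians of 0.06 in both, beside 0.003 over all probes tested. The number above 0 included probes of the same gene and arrays shared by all probes, so it is a description. The median over genes of each array, taken relative to all 16 arrays, ran from −0.12 to −0.01 for the pores in wild-type and from −0.07 to 0.05 in SOD1G93A cord, and from −0.10 to 0.02 and −0.06 to 0.04 for the auxiliary genes, with overlap in each. Marker lists of other cells differed in direction at this age. All 8 astrocyte markers had changes above 0, with S100b (+0.24), Gfap (+0.24) and Slc1a3 (+0.19) called, and their median deviation from the mean over arrays was −0.07 to −0.04 in the wild-type arrays and 0.01 to 0.21 in the SOD1G93A arrays. All 8 oligodendrocyte markers were also above 0, with 3 called, and the arrays ran from −0.01 to 0.20 in wild-type and 0.11 to 0.36 in SOD1G93A cord. Of 5 markers of oligodendrocyte precursors 4 were below 0, with 1 called lower, and of 10 microglia markers 8 were above 0, with a median of 0.01 and 1 called higher. All 6 Schwann cell markers were below 0 (median −0.57) and all 9 skeletal muscle markers above 0 (median 0.69), with 0 called by limma in either list. The Schwann cell score, over 5 of these genes, ran from −1.07 to 1.203 in wild-type and −0.92 to 0.42 in SOD1G93A arrays, and the muscle score from −0.70 to 0.21 and −0.46 to 2.35. Of 12 neuronal markers 9 were above 0 and none was called, and the arrays ran from −0.15 to 0.02 and −0.03 to 0.09. Of 7 tested motor neuron markers 5 were below 0 (median −0.10), with 0 called by limma. The part of these shifts in the channel values was not tested.

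**Figure D3:**
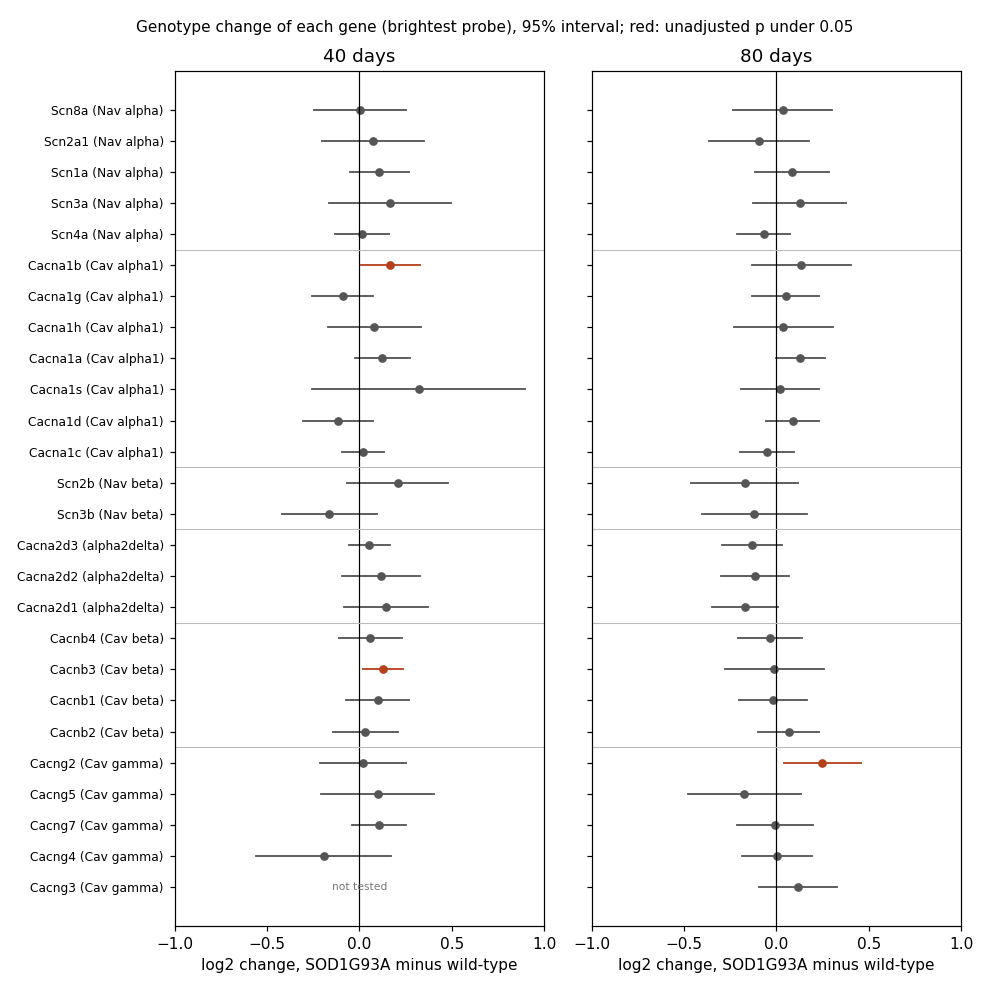
Change of 26 tested genes (brightest probe of each) between SOD1G93A and wild-type cord on the log2 scale (horizontal axis) at 40 days (left) and 80 days (right), with 95% intervals from limma and calls at an unadjusted p under 0.05 in red. Cacna1b and Cacnb3 were called at 40 days and Cacng2 at 80 days, and the interval of every other gene drawn held 0.

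At 80 days 2 of 43 member probes were called, or 4.65%, below the 6.86% of all probes tested. Both were auxiliary and higher in SOD1G93A cord, Cacng2 and Cacnb4, where 3.68% of all probes were called higher. As at 40 days, 0 members and 0 probes of the array passed the adjusted threshold in limma, and without loess no member was called.

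Cacng2 encodes stargazin, which carries AMPA receptors to synapses. Its brightest probe had ratios of 2.86, 2.76, 2.56 and 2.78 in wild-type and 2.96, 3.20, 3.01 and 2.80 in SOD1G93A cord. SOD1G93A replicates 1 to 3 lay above every wild-type array and replicate 4 inside their range. The change was +0.25 (SE 0.095, limma p = 0.0251, adjusted p = 0.702, exact permutation p = 0.0571). At 40 days it was +0.02, with values of 2.75, 2.71, 2.41 and 2.94 in wild-type and 2.80, 2.61, 2.83 and 2.65 in SOD1G93A cord. The difference between the ages was +0.23 (SE 0.15, limma p = 0.143, adjusted p = 0.822, exact permutation p = 0.205), so a difference was not shown. The other tested Cacng2 probes did not follow at 80 days, with +0.06 and −0.04. The call was lost without wild-type replicate 3 or SOD1G93A replicate 2, with p up to 0.0782, with backgrounds kept as deposited (change 0.16) and with processed signals (change 0.10).

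Cacnb4 was called by 1 of its 4 probes. This probe, A_51_P234663, had ratios of 0.84, 1.00, 0.84 and 1.12 in wild-type and 1.29, 1.05, 1.13 and 1.09 in SOD1G93A cord, with a change of +0.19 (SE 0.083, limma p = 0.0423, adjusted p = 0.718, exact permutation p = 0.0857). Wild-type replicate 4 lay above SOD1G93A replicates 2 and 4, and the SOD1G93A array was the higher one in 3 of 4 replicate numbers. The other 3 probes had changes of −0.03, −0.03 and −0.04, and the sign of the called probe turned with Agilent's processed signals (−0.23). The call was lost without wild-type replicates 1, 2 or 3 or SOD1G93A replicates 1 or 3 (p up to 0.125). It was kept in 3 of 11 other settings, and lost with the replicate block (limma p of 0.0693), backgrounds kept, processed signals, no loess, Cy3 alone, the authors' normalized table, array weights and the spread from all 16 arrays. The called probe and the nearest of the others whose placement skips an intron are shown because they lie in different stretches of the gene and only the first was called (mm7, minus strand, lower case since no base stands out).
Cacnb4 A_51_P234663, chr2:52462929-52462988: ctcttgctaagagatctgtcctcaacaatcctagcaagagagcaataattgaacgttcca
Cacnb4 A_51_P398621, chr2:52442010-52444205: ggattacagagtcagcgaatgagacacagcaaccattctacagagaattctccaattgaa
Both had an open reading frame throughout. The pool signal of the called probe was above background on 1 of 16 arrays only, against 16 of 16 for the other 3.

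Cacna1a was the 1 of 43 members whose groups did not overlap at 80 days, beside 4.30% of all probes. It had 0.36, 0.30, 0.21 and 0.21 in wild-type and 0.39, 0.38, 0.39 and 0.44 in SOD1G93A cord. All SOD1G93A arrays lay above the wild-type arrays by a small margin, and the change of +0.13 (SE 0.059, limma p = 0.0512, exact permutation p = 0.0286) missed the threshold. At 40 days its change was +0.12 (SE 0.067, limma p = 0.0958, exact p = 0.114). It is named after its values were seen.

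In the remaining classes the largest changes of brightest probes at 80 days did not pass. Scn3a had 0.84, 0.59, 1.00 and 0.71 in wild-type and 1.01, 0.73, 1.13 and 0.77 in SOD1G93A cord (+0.12, SE 0.11, limma p = 0.292, exact p = 0.343), with the same order of replicates in both groups. Scn2b had 5.28, 4.76, 4.84 and 5.06 against 5.11, 4.81, 4.70 and 4.63 (−0.17, SE 0.13, limma p = 0.216, exact p = 0.286), so the sign was opposite to that at 40 days. Cacnb2 showed the largest change among the brightest probes of the beta subunits, +0.07 (SE 0.075, limma p = 0.400, exact p = 0.457), with values of −0.43, −0.15, −0.19 and −0.30 against −0.16, −0.21, −0.14 and −0.31. By their brightest probes, Scn8a (0.03), Cacna1s (0.02), Cacna1h (0.04), Cacna1g (0.05), Cacng4 (0.003) and Cacng7 (−0.01) lay near 0. Scn2a1 was at −0.10, Scn3b at −0.12 and Cacng5 at −0.17, and none passed. A less bright Scn8a probe was at +0.19 (limma p = 0.146, exact p = 0.314). The less bright Cacna1g probe was at +0.12 (limma p = 0.199, exact p = 0.257).

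By class at 80 days, 13 of 18 pore-forming probes were above 0 with a median of 0.03, and 9 of 25 auxiliary probes with a median of −0.02, beside −0.002 over all probes. The alpha2delta probes had the lowest median, −0.12, with 4 of 5 below 0, where at 40 days 4 of 5 were above 0 (median 0.10). This turn was not particular to them. The median of the sodium channel beta probes was also above 0 at 40 days and below 0 at 80 days (−0.10). The calcium channel beta probes went from 6 of 7 above 0 (median 0.06) to 6 of 8 below 0 (median −0.02). Of 8 astrocyte markers 0 were called by limma at 80 days and 6 were below 0, of 8 oligodendrocyte markers 2 were called higher, and of 10 skeletal muscle markers 9 were above 0 (median 0.35) with 0 called. The muscle score ran from −0.48 to 0.71 in wild-type and −0.54 to 0.97 in SOD1G93A arrays. Of 12 neuronal markers 1 was called, Syt1 at −0.33, and 0 of 7 tested motor neuron markers were called at either age, Chat being above background on no array.

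**Figure D4:**
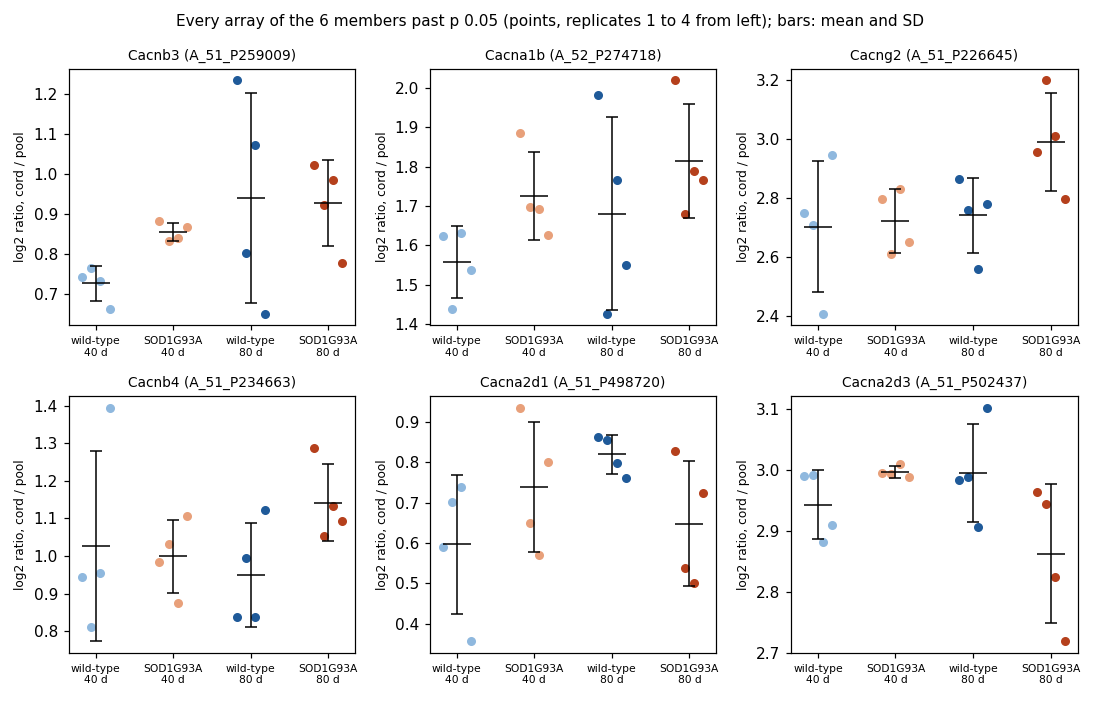
Log2 ratio of cord over pool (vertical axis, scaled to each gene) on every array for the 6 members called in a genotype comparison or in the difference between ages, in the 4 groups, with the mean and SD as bars. The Cacnb3 groups of 40 days were apart, the other panels showed overlap, and the genotypes of Cacna2d1 changed places between the ages.

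The difference between the genotype changes at 80 and at 40 days was tested in 1 model over the 16 arrays. It called 2 of 43 member probes (4.65%, against 6.72% of all probes tested), and both belonged to the alpha2delta class and were lower at 80 days, a direction in which 3.64% of all probes were called. No member passed the adjusted threshold, and without loess none was called. In the same difference all 8 astrocyte markers were below 0 (median −0.20, 3 called lower). So were 9 of 12 neuronal markers (median −0.13, 1 called lower, Syt1) and all 10 skeletal muscle markers (median −0.32, 1 called lower, Pvalb). Other lists went the other way. Above 0 were 5 of 7 motor neuron markers (median 0.14, 1 called higher) and 4 of 5 markers of oligodendrocyte precursors (median 0.11, 1 called higher). All 6 Schwann cell markers were above 0 too (median 0.49, 0 called by limma). The astrocyte score at 80 days ran from −0.12 to 0.12 in wild-type and −0.05 to 0.02 in SOD1G93A arrays, and the neuronal score from −0.02 to 0.14 and −0.11 to 0.05. The part of these shifts in the alpha2delta values was not tested.

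For Cacna2d1 the ratios at 40 days were 0.59, 0.70, 0.74 and 0.36 in wild-type and 0.93, 0.65, 0.57 and 0.80 in SOD1G93A cord, a change of +0.14 (SE 0.10, limma p = 0.195, exact p = 0.314). At 80 days they were 0.86, 0.85, 0.80 and 0.76 in wild-type and 0.83, 0.54, 0.50 and 0.72 in SOD1G93A cord, a change of −0.17 (SE 0.080, limma p = 0.0566, exact p = 0.0857). The wild-type arrays of 80 days sat close together, and 3 of the 4 SOD1G93A arrays lay below all of them. The difference was −0.31 (SE 0.14, limma p = 0.0332, adjusted p = 0.723, exact permutation p = 0.0424 over 4900 relabellings), while the second Cacna2d1 probe gave −0.12 (SE 0.11, limma p = 0.283, exact p = 0.283). The call was lost without wild-type 40 days replicate 4, SOD1G93A 40 days replicates 1 or 4, wild-type 80 days replicates 1 or 2, or SOD1G93A 80 days replicates 2 or 3, with p up to 0.0791, and with array weights (change −0.28).

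Cacna2d3, an alpha2delta subunit known from sensory pathways, had 2.99, 2.99, 2.88 and 2.91 in wild-type and 2.99, 2.99, 3.01 and 2.99 in SOD1G93A cord at 40 days (+0.05, SE 0.050, limma p = 0.308, exact p = 0.114). At 80 days it had 2.98, 2.99, 2.91 and 3.1 in wild-type and 2.96, 2.94, 2.82 and 2.72 in SOD1G93A cord (−0.13, SE 0.074, limma p = 0.102, exact p = 0.143). The SOD1G93A arrays of 40 days were nearly equal, and those of 80 days reached lower. The difference was −0.19 (SE 0.085, limma p = 0.0440, adjusted p = 0.741, exact permutation p = 0.0229). It was lost without any 1 of 11 of the 16 arrays, namely wild-type 40 days replicates 3 and 4, every SOD1G93A array of 40 days, wild-type 80 days replicates 1, 2 and 4, and SOD1G93A 80 days replicates 3 and 4 (p up to 0.103), and its sign turned when the Cy3 channel was taken alone (+0.02). Cacna2d2, the other gene of the class, went from +0.12 at 40 days to −0.12 at 80 days without a call.

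Over the 27 genes tested at both ages, 11 had changes above 0 at both, 12 were above 0 at 40 days and below at 80 days, 3 did the reverse and 1, Scn3b, was below 0 at both. Of 13 pore-forming genes 8 were above 0 at both ages, and of 14 auxiliary genes 9 turned from above to below 0. Most of these changes did not pass the test at either age. Where a gene had several tested probes, they had the same direction in 5 of 10 genes at 40 days and 6 of 11 at 80 days.

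Age within a genotype was compared in the same model. In wild-type cord 5 of 42 member probes were called between 40 and 80 days (11.9%, against 15.4% of all probes), and each was higher at 80 days, where 7.05% of all probes were called higher. They were Cacng5 (+0.34, limma p = 0.0361, exact permutation p = 0.0286), Cacna2d2 (+0.22, limma p = 0.0269, exact p = 0.114), Cacna2d1 (+0.22, limma p = 0.0325, exact p = 0.0286), Cacnb3 (+0.21, limma p = 0.0402, exact p = 0.229) and Scn4a (+0.14, limma p = 0.0485, exact p = 0.0286). No member passed the adjusted threshold, which 1.62% of all probes passed. Groups did not overlap for 4 of 42 members, Cacng5, Cacna2d1, Scn4a and Cacna1c, beside 7.73% of all probes. Scn4a was well above background on 2 of 4 wild-type arrays of 40 days and 3 of 4 of 80 days. It thus entered this comparison only through the group where it was higher, so its call and its lack of overlap are a description only. Cacng5, a TARP-related gamma subunit, had 1.99, 1.63, 1.89 and 1.78 at 40 days and 2.48, 1.99, 2.17 and 2.01 at 80 days. Each of these 5 calls was lost on leaving out certain single arrays. For Cacng5 these were replicates 2 and 4 of 40 days and 1 and 3 of 80 days (p up to 0.138), for Cacna2d2 replicates 1 and 4 of 40 days and 4 of 80 days (up to 0.112), and for Cacna2d1 replicates 1 and 4 of 40 days and 1 and 2 of 80 days (up to 0.136). For Cacnb3 they were replicates 1, 3 and 4 of 40 days and 1 and 3 of 80 days (up to 0.186), and for Scn4a replicates 1, 2 and 3 of 40 days (up to 0.119), with 3 other arrays whose loss left it untested. All 5 alpha2delta probes were above 0 in this comparison, as were 34 of the 42 member probes and 11917 of 21526 probes over all tested. The second tested Cacna2d2 probe was hardly above it, at +0.003 (limma p = 0.983), and Cacna2d3 was at +0.05 (limma p = 0.404, exact p = 0.457). The wild-type arrays of 40 days enter both this comparison and the genotype comparison, so the values stand side by side and are not independent.

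In SOD1G93A cord 3 of 42 member probes were called between the ages (7.14%, against 17.2% of all probes), and none passed the adjusted threshold, which 1.16% of all probes passed. Cacna1g, a T-type channel that opens near resting potential, was higher at 80 days by 0.24 (SE 0.080, limma p = 0.00785, adjusted p = 0.142, exact permutation p = 0.0571). Its ratios were 1.17, 0.95, 0.93 and 1.05 at 40 days and 1.41, 1.38, 1.09 and 1.17 at 80 days, replicate 3 of 80 days lying below replicate 1 of 40 days. It was called under each of 17 other settings and left-out arrays, with p from 6.3e-04 to 0.0361. In wild-type cord the same probe had 1.15, 1.10, 1.23 and 0.97 at 40 days and 1.21, 1.12, 1.27 and 1.25 at 80 days. Its change there was +0.10 (limma p = 0.230, exact permutation p = 0.200). The difference between the genotypes in the age change was +0.14 (SE 0.11, limma p = 0.225, exact permutation p = 0.214), so a rise particular to SOD1G93A cord was not shown. Cacng2 was higher by 0.27 (limma p = 0.0220, exact permutation p = 0.0857), while its other tested probes were at −0.04 and, for A_52_P569028, at −0.16 without overlap (limma p = 0.205, exact p = 0.0286). The call was lost with backgrounds kept as deposited, with processed signals, without loess, and without SOD1G93A 40 days replicates 2 or 4 or 80 days replicate 2 (p up to 0.0866). Cacna2d3 was lower by 0.13 (a change of −0.13, limma p = 0.0401, exact permutation p = 0.0286), 1 of the members without overlap beside 12.6% of all probes, and lost without any SOD1G93A array of 40 days or without 80 days replicates 3 or 4 (p up to 0.159).

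Cacna1s, the L-type pore of skeletal muscle, varied most between arrays among the brightest probes. At 40 days it had −0.48, −0.58, −0.17 and −0.76 in wild-type and −0.57, 0.72, −0.43 and −0.42 in SOD1G93A cord, and at 80 days −0.03, −0.36, −0.14 and −0.43 and −0.32, −0.09, −0.27 and −0.20. SOD1G93A 40 days replicate 2 alone was above 0, and with it the change at 40 days was +0.32 (SE 0.26, limma p = 0.243, exact p = 0.429). Without it the probe was no longer above background on enough arrays to be tested. The score of 9 skeletal muscle markers (the median of their deviations from the mean over arrays) was 2.35 on this array, the highest of 16. The next were 0.97 on SOD1G93A 80 days replicate 2, 0.71 on wild-type 80 days replicate 1 and 0.66 on SOD1G93A 80 days replicate 4, and 10 of the other 12 arrays lay between −0.70 and −0.43. The 4 arrays highest for muscle markers held Cacna1s ratios of 0.72, −0.09, −0.03 and −0.20. Scn4a, the other muscle channel, did not follow, with −0.24 on the array of highest muscle score, its lowest value. The part of muscle RNA in the Cacna1s ratio was not tested.

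**Figure D5:**
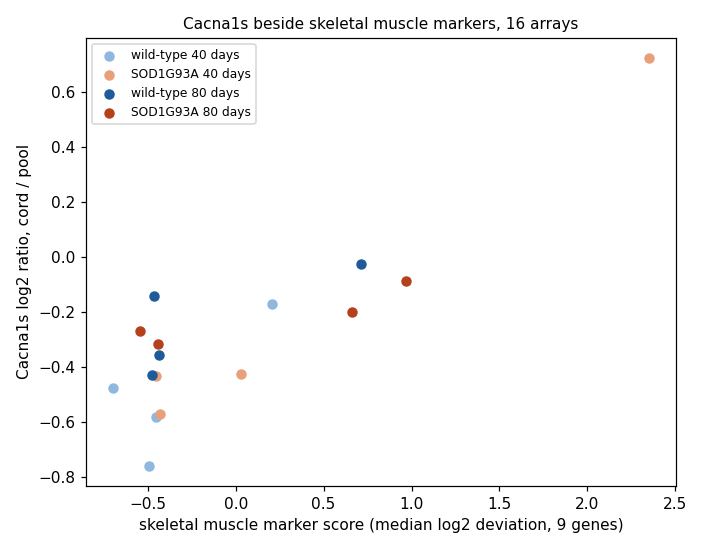
Log2 ratio of Cacna1s (vertical axis) against the skeletal muscle marker score of 9 genes (horizontal axis, median log2 deviation), with 1 point for each of the 16 arrays coloured by group. SOD1G93A 40 days replicate 2 stood alone at a score of 2.35 and a ratio of 0.72, and the other arrays lay below a ratio of 0.

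Genes that work beside the channels were counted in lists chosen with the members. For these lists, here and below, the shares of all probes called were 4.51% at 40 days, 6.86% at 80 days and 6.72% in the difference. Of 15 tested genes of the axon initial segment and node, such as ankyrin-G and the node adhesion proteins, 0 were called at 40 days, at 80 days and in the difference by limma, with medians of 0.08 and −0.01 at the 2 ages. Of 19 genes of presynaptic release sites, 1 was called at 80 days, the calcium sensor Syt1 (−0.33, limma p = 0.0410, exact p = 0.114), which was also called in the difference (−0.43, limma p = 0.0321, exact p = 0.0580). Syt1 is also in the neuronal marker list, and its calls there are the same results. Among 8 genes of AMPA receptors and their partners, Gria4 was called at 40 days (+0.17, limma p = 0.0158, exact p = 0.0571) and in the difference (−0.30, limma p = 0.00341, exact p = 0.00408), and the scaffold Dlg4 at 80 days (+0.20, limma p = 0.0486, exact p = 0.0571).

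Among the called partner genes named here, Itpr3 of the calcium handling list had the largest changes. Of 24 tested genes of buffers, pumps, stores and sensors, 2 were called lower at 40 days, the store channels Itpr3 (−0.56, limma p = 0.0194, exact p = 0.0857) and Ryr3 (−0.13, limma p = 0.0328, exact p = 0.0286). At 80 days 3 were called, the sodium-calcium exchanger Slc8a3 (+0.31, limma p = 0.00703, exact p = 0.0286), the kinase Camk2g (+0.17, limma p = 0.0273, exact p = 0.0286) and Ryr3 again (−0.18, limma p = 0.0471, exact p = 0.0571). In the difference Slc8a3 (+0.46, limma p = 0.00193, exact p = 0.00245), Itpr3 (+0.70, limma p = 0.0193, exact p = 0.0486) and the buffer Pvalb (−0.34, limma p = 0.0407, exact p = 0.0567) were called. Pvalb is also in the skeletal muscle list, and its call there is the same result. Of 8 genes of the sodium leak channel and sodium pumps, Atp1b1 was called at 40 days (+0.18, limma p = 0.0330, exact p = 0.0857), and none at 80 days. None of these passed the adjusted threshold.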

How the data were processed

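Gene expression was measured on 16 Whole Mouse Genome 4 × 44K arrays of 2 colours. Per the file headers, the authors extracted spot intensity values with Agilent Feature Extraction 9.5.3.1 (the methods name another version), and probes are placed on mm7. The deposited series table holds log2 values that the authors normalized with Agi4x44PreProcess and limma. Its columns followed the Cy3 channel (r 0.996 to 1.00) and not the ratio (r 0.316 to 0.336), with medians of 6.40 at 40 days and 6.09 at 80 days. It was used as an alternative. Marks that Feature Extraction sets for a spot (above background, saturated, outlier) are other deposited columns.

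From the deposited median intensities, spots more than 20 units below their local background were given the array's median background, followed by normexp (offset 50), loess within arrays and Aquantile between arrays (limma 3.58.1, R 4.3.3). The log2 ratio of Cy3 to Cy5 was tested with lmFit and eBayes, over the 8 arrays of an age for genotype and all 16 otherwise, at the unadjusted threshold of the study's methods and with Benjamini-Hochberg adjustment over all probes tested. Control spots and outlier spots were left out. Tests covered probes well above background in Cy3 on 3 or more of 4 arrays in 1 group, with 2 or more values in each. Exact permutation tests were two-sided. Scripts were tested on simulated data. Cy3 was above background for 46.1% to 55.3% of probes on an array. The number of arrays limits the precision.

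Members, gene lists, tests and the treatment of bright backgrounds were chosen with earlier results of these data known. Named with every array were members called between genotypes or in the difference and the largest change of each class, brightest probe for each gene. Called partner genes were named, apart from any not reported here. Each slide held replicate i of every group, and each group had its own slide position, so that position and group cannot be told apart. Of 24 pairs of arrays with the same replicate number, 8 had correlated deviations above 0.1 (r −0.138 to 0.232), as had 8 of 72 other pairs. The main tests and the permutations did not take the numbers as pairs, so they left the shared slide out of account. The slide as a block was an alternative. Some genes, calls and probe sequences are not reported.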

Additional observations from a re-analysis of the deposited data

Results flagged for a closer look

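In 15 members with 60 groups of 4 arrays, 2 groups held 1 array far from the others, by the gap to its neighbour over the range. Chance marks about 1 in 20 groups in this way. Cacna1s had a log2 ratio of 0.72 in SOD1G93A 40 days replicate 2, where the other 3 arrays lay between −0.57 and −0.42, and the same array had the highest skeletal muscle score (2.35). Cacng4 had 0.78 in SOD1G93A 80 days replicate 1, where the others lay between 0.49 and 0.52.

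The genotype change differed between the ages for 2 members by the interaction term in limma. For Cacna2d1 the difference was −0.31 (limma p = 0.0332, exact permutation p = 0.0424), and for Cacna2d3 it was −0.19 (limma p = 0.0440, exact permutation p = 0.0229).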

How the results depend on the processing

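At 40 days the 2 calls became 0 with local backgrounds kept as deposited, without loess, with Cy3 alone, with the series table and with the spread taken from all 16 arrays, 1 with array weights and with the replicate block, and 4 with processed signals. At 80 days the 2 calls became 1 with backgrounds kept, processed signals and the replicate block, 0 without loess and 6 without the filter on dim probes, and neither Cacng2 nor Cacnb4 was kept with backgrounds kept or processed signals. In the difference 2 became 1 with backgrounds kept, Cy3 alone, the series table and array weights, 0 without loess, and 4 with processed signals and without the filter, and neither Cacna2d1 nor Cacna2d3 was kept with array weights. The wild-type ages went from 5 to 8 without background subtraction and without the filter, 3 with Cy3 alone, 2 with array weights and 0 without loess, and the SOD1G93A ages from 3 to 1 without loess. The cause was not tested, apart from the filter, whose removal tests all 73 probes. The pore-forming median at 40 days moved from 0.06 to 0.21 with processed signals and −0.0030 without loess, and the auxiliary median at 80 days from −0.02 to −0.10 with processed signals. Signs turned at 80 days for Cacnb4 (−0.23) and Cacna1b (−0.27) with processed signals, for Cacna1b (−0.048) and Scn3a (−0.053) without loess, at 40 days for Scn2b with the series table (−0.0032), for Cacna2d3 in the difference with Cy3 alone (0.025) and the series table (0.035), and between the SOD1G93A ages with Cy3 alone (0.039).

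With single arrays left out, calls ran from 0 to 3 at 40 days, 0 to 3 at 80 days, 0 to 4 in the difference, 1 to 6 between the wild-type ages and 2 to 4 between the SOD1G93A ages. The pore-forming median ran from 0.03 to 0.08 at 40 days and 0.002 to 0.08 at 80 days, the auxiliary median from 0.05 to 0.10 and from −0.04 to 0.001. With the replicate block, Cacnb3 at 40 days (change 0.13) and Cacnb4 at 80 days (change 0.19) lost their calls, at limma p of 0.0532 and 0.0693, and no other call of a named member was lost. Of 16 arrays, 7 correlated best with an array of their own replicate number. The series table was not used for age within a genotype, since its medians differ by age.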

Other observations

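Some members followed the slide in every group. The same slide gave the lowest ratio in all 4 groups for 5 of 41 members (12.2%), beside 585 of 20808 probes (2.81%), and the highest for 2 of 41 (4.88%), beside 558 probes (2.68%). Cacng7, Cacnb4 (A_51_P398621), Scn8a (A_52_P183239) and Cacna2d2 (A_52_P457895) were lowest on slide 3, Scn3a was lowest on slide 2 and highest on slide 3, and Cacng5 was highest on slide 1. Over the members tested, the median SD within groups was 0.139 (41 probes), beside 0.111 over 20988 probes, from 0.0353 for a Cacna1c probe to 0.354 for a Scn2a1 probe.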
